A study of Mus musculus with 10 samples.

Results

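The respiratory chain genes described here are the nuclear genes for the subunits of the mitochondrial electron transport chain and ATP synthase. They were taken by symbol as the protein-coding genes of the count table whose name starts with Nduf, Uqcr, Cox4, Cox5, Cox6, Cox7, Cox8 or Atp5, together with Sdha, Sdhb, Sdhc, Sdhd, Cyc1 and Cycs, and the rule used no measured value. This gave 95 genes of the 36191 gene IDs in the table: 36 subunits of complex I, 8 complex I assembly factors (named Ndufaf), 4 subunits of complex II, 9 of complex III, 20 of complex IV (with Ndufa4 and its relative Ndufa4l2, which carry the Nduf name), 17 of complex V and the carrier cytochrome c. A further 10 rows with matching names are processed pseudogenes and were left out. Subunits encoded by mitochondrial DNA were not analysed here. RNA was sequenced from mouse embryonic stem (ES) cells of the 129x1 x 129S1 background, either wild type or Rybp null mutant, at day 0, and from cardiac cultures derived from them through hanging-drop embryoid bodies at days 8 and 14. Each genotype had 1 library at day 0 and 2 at each later day, so 10 in all. Rybp encodes a Polycomb-associated protein, and the series asks how its loss affects cardiac differentiation. The labels do not say how many null clones were used or whether replicates came from separate differentiations, so p-values measure the spread between these libraries, which may be technical.

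The respiratory chain passes electrons from NADH (complex I) and succinate (complex II) through complex III and cytochrome c to oxygen at complex IV, and complex V uses the resulting proton gradient to make ATP. ES cells draw much of their energy from glycolysis, whereas the adult heart depends on oxidative phosphorylation. Several subunits of complex IV come in tissue forms: Cox6a2, Cox7a1 and Cox8b are the heart and skeletal muscle forms of Cox6a1, Cox7a2 and Cox8a, Cox4i2 is a lung and hypoxia form of Cox4i1, and Cox6b2, Cox7b2 and Cox8c are expressed mainly in testis.

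Library totals ran from 3028153 to 6890792 counts, and Rybp itself held 1 to 4 counts in each null library against 64 to 231 in the wild type libraries. Levels are given in CPM, counts scaled to the size of the library after TMM correction for its composition. Of the 18 cardiomyocyte markers none was at 0 counts in wild type at day 8, where their summed level was 2680 and 2220 CPM. In null cultures of that day it was 139 and 80.9 CPM, with Myl7, Myl3, Nppa, Nppb and Nkx2-5 at 0 counts. The ES cell libraries already had sums of 367 CPM in wild type and 156 CPM in null cells, with 11 and 8 markers at 0 counts. At day 14 the sum was 1100 and 969 CPM in wild type (Nppb and Ckmt2 at 0) and 205 and 278 CPM in null cultures (Ckmt2, Nkx2-5 and Csrp3 at 0). The cultures were mixtures, so fewer cells of a type and less RNA per cell cannot be told apart. Summed red cell markers were 1100 and 1120 CPM in wild type and 3340 and 1100 CPM in null cultures at day 8, and macrophage markers were 343 and 467 CPM in wild type and 137 and 159 CPM in null cultures at day 14. The part of these cell types in the results below was not tested.

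The 95 genes together took 0.634% to 0.775% of the counts of a library, and the catalytic core of ATP synthase, Atp5a1 and Atp5b, made up 20.4% to 30.6% of that share. Their summed level was 8160 CPM in wild type ES cells, 6140 and 6530 CPM at day 8 and 6880 and 7520 CPM at day 14. In null cells it was 9040 CPM at day 0, 7400 and 6740 CPM at day 8 and 6510 and 6640 CPM at day 14. On the TMM scale the ES cell library was the highest of the course in both genotypes, for the whole set and for the assembly factors, complexes II, III and V and cytochrome c. Complexes I and IV were highest at day 0 in null cells. Without TMM scaling the order in wild type was another, since members took 0.724% of all counts at day 0 and 0.773% in day 14 replicate 2. In wild type the sum of complex I was 1650 CPM at day 0 and 1700 CPM in a day 14 library, and that of complex IV was 1510 and 1560 CPM. The complex I assembly factors were at 357 and 338 CPM in wild type and null ES cells against 133 to 179 CPM in every later library.

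**Figure D1:**
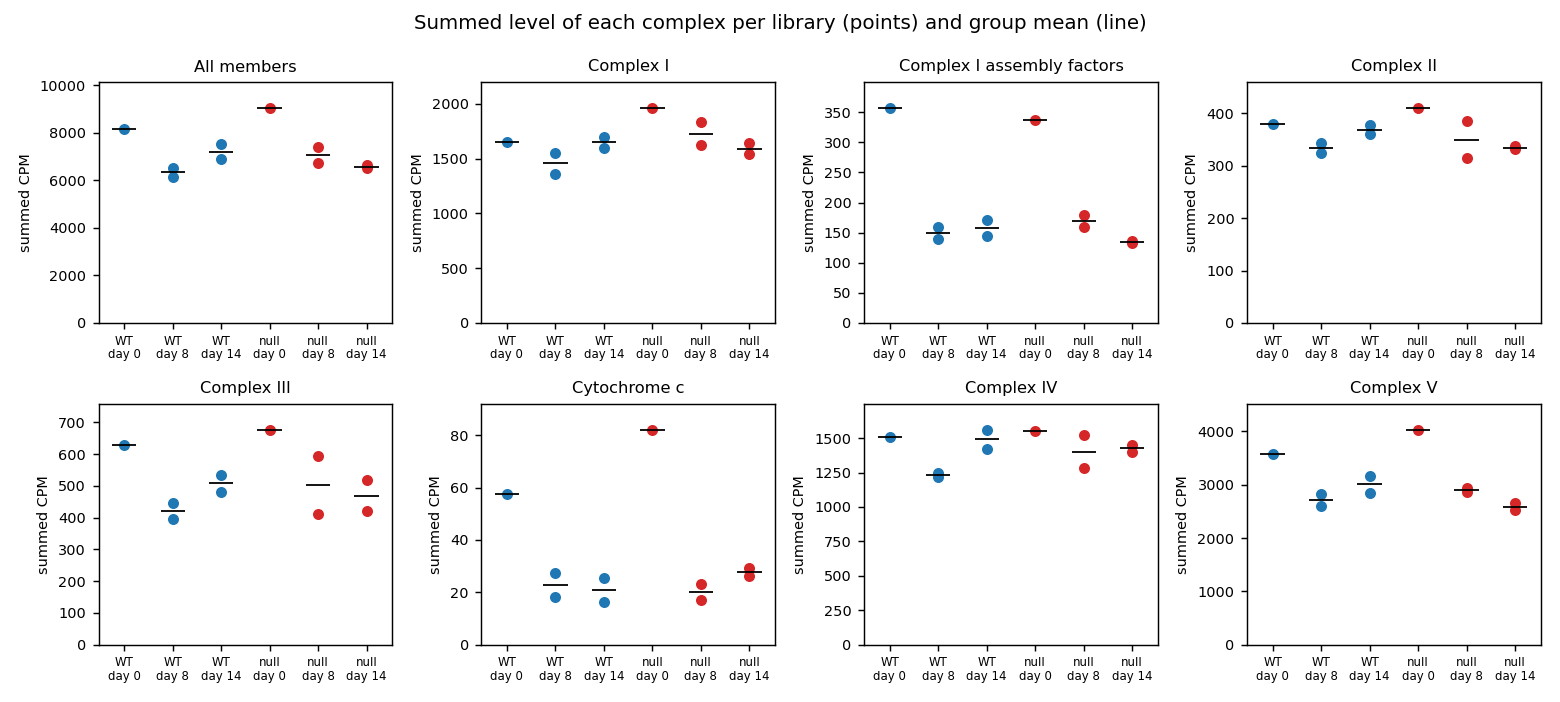
Summed level (TMM-scaled CPM, vertical axes from 0) of all 95 genes and of each complex in the 10 libraries, wild type in blue and Rybp null in red; points are libraries and lines group means (day 0 is 1 library). The assembly factors are at 357 and 338 CPM in ES cells and at 133 to 179 CPM later, while complex II ranges from 314 to 410 CPM over all libraries.

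Between ES cells and day 8, 11 members fell in both genotypes: 3 subunits each of complexes I and IV, 2 complex I assembly factors, 1 subunit each of complexes III and V, and cytochrome c. A subunit each of complexes I and IV rose in both. Of the 95 genes 90 passed the filter on low counts and were tested; the 5 that did not are Cox4i2, Cox6a2, Cox7b2, Cox8b and Cox8c. By edgeR's quasi-likelihood test with Benjamini-Hochberg adjustment over 15819 genes, called at an adjusted p under 0.05, 17 were lower and 5 higher in wild type day 8 cultures, in a comparison where 40.5% of all genes were called (21.2% higher and 19.3% lower). In null cultures 15 were lower and 3 higher, against 37.7% of all genes (19.0% higher and 18.6% lower). The share of members called lower was near that of all genes, and fewer members than that background were called higher. The median log2 fold change of the 90 was −0.24 in wild type and −0.27 in null cells, against 0.12 and 0.04 over all genes tested. The lower calls of both genotypes shared 11 genes (64.7% of the wild type and 73.3% of the null calls): Atp5f1, Cox5a, Cox7b, Cox7c, Cyc1, Cycs, Ndufaf2, Ndufaf4, Ndufb5, Ndufs1 and Ndufv2. Cox7a2l and Ndufb7 were higher in both. These comparisons share no library between genotypes, and all 27 genes called in either had the same sign in both. The overlap and the agreement in sign over all genes are not given here. Whether they are particular to the members was not tested. The difference between the genotypes in this change, a test added after the data were seen, called 0 of the 90 and 0.0316% of all genes. By that test 1 member had an unadjusted p under 0.05, and DESeq2 also called 0. Each day 0 group is a lone library, which the fit takes to vary like the others.

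By complex, the lower calls in wild type were 4 of 36 in complex I, 2 of 8 assembly factors, 0 of 4 in complex II, 3 of 9 in complex III, 3 of 15 tested in complex IV, 4 of 17 in complex V and cytochrome c. In null cells they were 4, 2, 0, 1, 5, 2 and cytochrome c. The higher calls in wild type were 3 in complex I and 2 in complex IV, and in null cells 1 each in complexes I, IV and V. Complex III and the assembly factors had the lowest medians among the groups of more than 1 gene, at −0.54 and −0.61 in wild type and −0.45 and −0.50 in null cells. The 4 subunits of complex II, the succinate dehydrogenase that also serves the citric acid cycle, lay between −0.27 and 0.01 in wild type and between −0.44 and 0.01 in null cells, and all 4 had 95% intervals within 2-fold of no change in each genotype.

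Cytochrome c (Cycs), the soluble carrier between complexes III and IV, was at 57.7 CPM in wild type ES cells and at 18.2 and 27.3 CPM at day 8, and at 82.1 against 16.9 and 23.3 CPM in null cells. Both day 8 libraries of each genotype lay far below the ES cell library, with log2 fold changes of −1.34 (SE 0.35, adjusted p = 0.00961) and −2.03 (SE 0.34, adjusted p = 0.000599). The annotation names 2 pseudogenes of Cycs that may share its reads, so its level is uncertain. Cyc1, the cytochrome c1 of complex III, went from 42.2 to 24.6 and 18.3 CPM in wild type and from 46.7 to 23.9 and 25.6 CPM in null cells (−0.98, adjusted p = 0.037, and −0.91, adjusted p = 0.0442). The Rieske iron-sulfur protein Uqcrfs1 was at 35.6 CPM in wild type ES cells and 16 and 15.8 CPM at day 8, a call at −1.17 (SE 0.37, adjusted p = 0.0246). In null cells it was at 29.4 against 22 and 15.3 CPM and did not pass (−0.66, adjusted p = 0.174). Uqcrc1, a core protein of complex III, was at 16.5 against 15.3 and 14.9 CPM in wild type and 18.3 against 15.7 and 10.9 CPM in null cells, with intervals of −0.98 to 0.73 and −1.26 to 0.36.

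In complex IV, the terminal oxidase, Cox5a went from 83.1 CPM to 24 and 33.5 CPM in wild type and from 96.5 CPM to 36 and 32.8 CPM in null cells (−1.53 and −1.48, adjusted p = 0.000864 and 0.000943). The small subunit Cox7b went from 213 to 68.4 and 76.1 CPM and from 195 to 64.1 and 93.5 CPM (−1.56 and −1.31, adjusted p = 0.000311 and 0.00112). Cox7c went from 218 to 85.6 and 73.3 CPM and from 179 to 91.2 and 79.7 CPM (−1.46 and −1.06, adjusted p = 0.000207 and 0.002). For these 3 subunits the day 8 values of both genotypes overlapped, and all 4 libraries of day 14 also lay below the ES cell libraries. Not every subunit of the enzyme followed. Cox7a2l, a Cox7a relative that helps assemble supercomplexes, rose from 66 to 108 and 121 CPM in wild type and from 56.9 to 146 and 113 CPM in null cells (0.80, adjusted p = 0.0177, and 1.19, adjusted p = 0.00178). Cox6a1 was at 123 CPM in ES cells and 193 and 204 CPM at day 8 in wild type, a rise of 0.69 (SE 0.22, adjusted p = 0.0256), and at 159 against 251 and 213 CPM in null cells (0.55, adjusted p = 0.0618). Cox4i1, Cox6b1, Cox8a and Ndufa4 did not pass in either genotype. Their log2 fold changes in wild type and null cells were −0.33 and −0.74 for Cox4i1, 0.45 and 0.44 for Cox6b1, −0.43 and −0.30 for Cox8a, and −0.40 and −0.32 for Ndufa4. The lowest adjusted p among them was 0.0579, for Cox4i1 in null cells.

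Complex I showed subunits that moved in opposite directions. Ndufs1, the large iron-sulfur subunit, was at 98 CPM in wild type ES cells and 49.8 and 59.7 CPM at day 8, and at 172 against 74.7 and 108 CPM in null cells (−0.84 and −0.91, adjusted p = 0.0253 and 0.0145). The assembly factor Ndufaf4 went from 128 to 48.9 and 38.9 CPM and from 141 to 55.6 and 57.8 CPM (−1.55 and −1.32, adjusted p = 0.000325 and 0.000957), and Ndufaf2 from 144 to 49.8 and 41.1 CPM and from 120 to 59.7 and 42.3 CPM (−1.66 and −1.23, adjusted p = 0.00103 and 0.00719). Against these, the accessory subunit Ndufb7 rose from 16.2 to 51.7 and 45.7 CPM in wild type and from 23.4 to 76.9 and 44.6 CPM in null cells (1.59 and 1.38, adjusted p = 0.00531 and 0.00812). Ndufv3, a small subunit of the NADH-oxidising module, rose from 20.1 to 47.6 and 49.6 CPM in wild type (1.27, adjusted p = 0.00985) and was at 22.3 against 38.4 and 29.9 CPM in null cells (0.62, adjusted p = 0.146). Ndufb11 was just past the threshold in wild type (0.74, adjusted p = 0.0497), a call lost under 10 of 13 alternatives, and at 0.32 in null cells (adjusted p = 0.367). The core subunit Ndufv1 did not pass in either genotype, with log2 fold changes of 0.28 in wild type and 0.52 in null cells.

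In complex V, Atp5a1 and Atp5b form the catalytic head. Atp5a1 was at 980 CPM in wild type ES cells and 831 and 957 CPM at day 8, and at 1030 against 956 and 911 CPM in null cells, with intervals of −0.53 to 0.27 and −0.54 to 0.26 on the log2 scale. Atp5b was at 1300 against 815 and 914 CPM in wild type (−0.58, adjusted p = 0.142) and at 1740 against 556 and 1080 CPM in null cells (−1.09, SE 0.30, adjusted p = 0.0134). The null day 8 libraries were thus far from each other for Atp5b, the second of them above both wild type libraries and the first below both. The stalk subunit Atp5f1 went from 128 to 50.8 and 49 CPM and from 153 to 60.7 and 63.6 CPM (−1.36 and −1.30, adjusted p = 0.00173 and 0.00226). Atp5mpl, a small membrane subunit, fell from 43.9 to 10.9 and 12.4 CPM in wild type (−1.91, adjusted p = 0.00764), and was at 34.2 against 29.7 and 13.8 CPM in null cells (−0.64, adjusted p = 0.303). Atp5d, a subunit of the central stalk, was at 18.1 against 24.9 and 36.1 CPM in wild type (0.75, adjusted p = 0.109) and rose from 17.6 to 37.2 and 30.8 CPM in null cells (0.95, adjusted p = 0.043).

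Several of these calls were close to the threshold and were lost when 1 library was left out. Without wild type day 8 replicate 1, 14 rather than 22 members were called in wild type; of the genes above, the calls of Cycs (adjusted p = 0.0753), Ndufs1, Cyc1, Cox6a1, Uqcrfs1 and Ndufb11 no longer passed. Without replicate 2, 13 were called, and those of Cox7a2l (adjusted p = 0.0852), Cyc1, Cox6a1, Uqcrfs1 and Ndufb11 were lost. In null cells Ndufs1, Cyc1 and Atp5d no longer passed without null day 8 replicate 1, and Cyc1 without replicate 2, after which 9 members rather than 3 were higher. Cox7a2 was at 20.8 against 11.1 and 10.4 CPM in null cells (−0.95, adjusted p = 0.0448), a call lost under 11 of 13 alternatives, and at 25.4 against 13.7 and 13.2 CPM in wild type (−0.91, adjusted p = 0.0543). Cox5a, Cox7b, Cox7c, Atp5f1, Ndufaf2, Ndufaf4 and Ndufb7 kept their calls in both genotypes under each alternative that gave an adjusted p. Among the members named above for their change to day 8, 9 have exons that overlap those of genes on the opposite strand. These are Cox4i1, Cox5a, Atp5a1, Atp5d, Atp5f1, Ndufaf2, Ndufb5, Ndufb11 and Ndufs1. The sources used here do not say whether counting used strand, so their levels are uncertain.

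**Figure D2:**
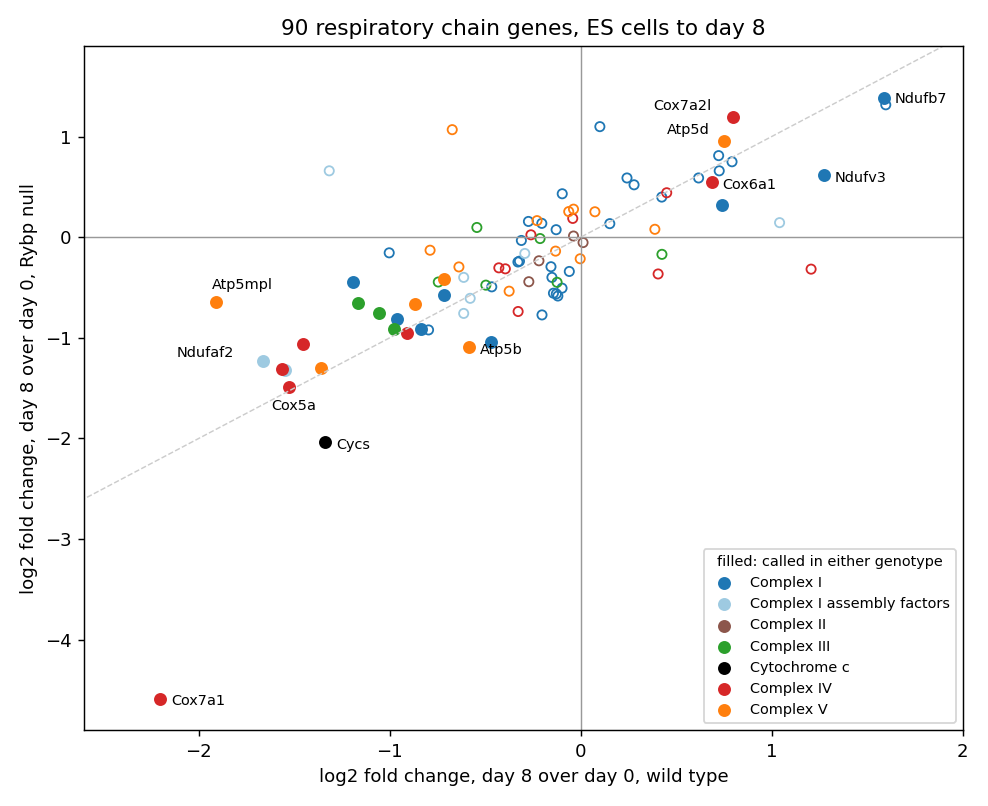
The log2 fold change from day 0 to day 8 of the 90 tested genes in wild type (horizontal) and Rybp null (vertical) cells, coloured by complex; filled points passed in at least 1 genotype (27 genes), open ones in neither, and the dashed line marks equal change. All 27 lie in the lower left or upper right quadrant; the outlying Cox7a1 rests on 42 counts at day 0 and 2 at day 8 in null cells, so its fitted position is imprecise.

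**Figure D3:**
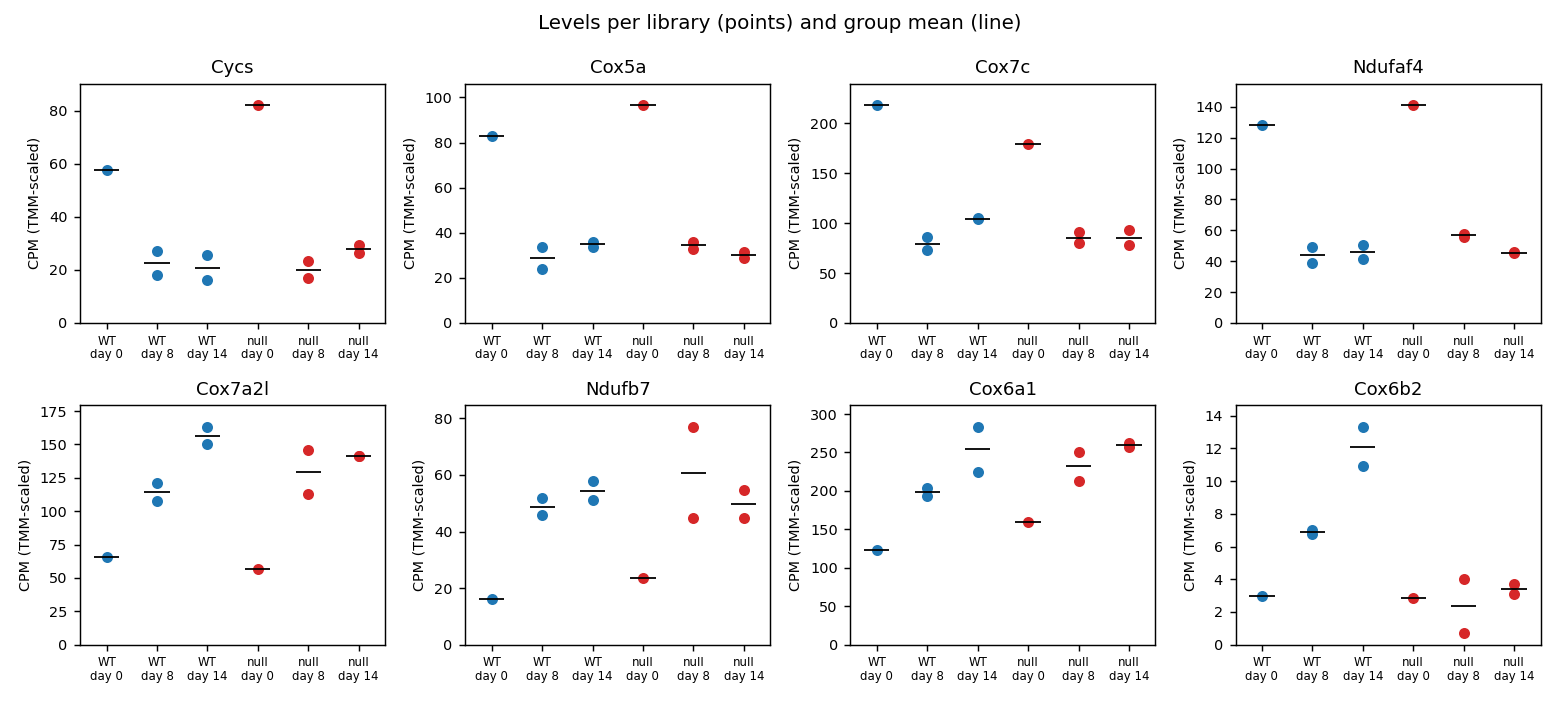
Level (TMM-scaled CPM, axes from 0) of 8 genes in the 10 libraries, wild type in blue and Rybp null in red; points are libraries and lines group means. Cycs, Cox5a, Cox7c and Ndufaf4 are highest in both ES cell libraries, Cox7a2l, Ndufb7 and Cox6a1 are lowest there, and Cox6b2 reaches 10.9 and 13.3 CPM in wild type at day 14 against 3.1 and 3.71 CPM in null cultures.

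Nuclear respiratory factor 1 (NRF1), GABPA, YY1, CREB and the estrogen-related receptors (ERR) are known activators of respiratory chain genes, and their motifs were sought in the promoters of the members. RefSeq (GRCm38.p6) gave a promoter, 250 bases before to 50 after a start, for 75 of the 95 genes and for 17491 protein-coding genes. The NRF1 motif GCATGCGC was found on either strand in 13 of the 75 (17.3%, against 3.93% of all), and the YY1 motif AAGATGGC in 10 (13.3% against 3.57%). The ERR site AAGGTCA was found in 8 (10.7% against 4.73%), the CREB motif TGACGTCA in 5 (6.67% against 2.54%) and the GABPA motif CCGGAAGT in 5 (6.67% against 5.69%), and none of these motifs is contained in another. Of the 16 genes with a promoter that were lower at day 8 in either genotype, 2 held the NRF1, 2 the YY1 and 2 the CREB motif, and of the 6 that were higher 1 held the NRF1 motif. The 250 bases before the start are shown for the 3 of these 22 genes with the NRF1 motif, of which Cycs and Ndufaf4 were lower and Cox6a1 higher. Cox7c and Cox7a2l are shown beside them because they changed in opposite directions and hold none of the motifs. Capitals mark motif matches, and in Ndufaf4 and Cox6a1 the 10 capitals are overlapping matches.
Cycs (chr6:50566570-50566819, minus strand): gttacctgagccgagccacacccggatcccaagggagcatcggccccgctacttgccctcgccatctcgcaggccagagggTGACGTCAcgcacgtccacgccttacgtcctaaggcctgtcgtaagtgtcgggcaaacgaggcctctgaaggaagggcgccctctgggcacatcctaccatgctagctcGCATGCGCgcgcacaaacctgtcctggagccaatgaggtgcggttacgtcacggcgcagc
Ndufaf4 (chr4:24897833-24898082, plus strand): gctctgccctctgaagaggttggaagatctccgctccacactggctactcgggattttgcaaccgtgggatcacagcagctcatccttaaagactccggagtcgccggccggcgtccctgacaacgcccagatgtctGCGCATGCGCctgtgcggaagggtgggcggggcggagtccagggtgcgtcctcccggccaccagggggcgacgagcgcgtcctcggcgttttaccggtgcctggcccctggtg
Cox6a1 (chr5:115348959-115349208, minus strand): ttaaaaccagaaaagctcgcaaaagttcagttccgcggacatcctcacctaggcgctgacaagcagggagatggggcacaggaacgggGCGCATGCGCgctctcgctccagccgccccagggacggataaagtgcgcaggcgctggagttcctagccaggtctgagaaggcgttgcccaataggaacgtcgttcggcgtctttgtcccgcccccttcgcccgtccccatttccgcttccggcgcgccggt
Cox7c (chr13:86046796-86047045, minus strand): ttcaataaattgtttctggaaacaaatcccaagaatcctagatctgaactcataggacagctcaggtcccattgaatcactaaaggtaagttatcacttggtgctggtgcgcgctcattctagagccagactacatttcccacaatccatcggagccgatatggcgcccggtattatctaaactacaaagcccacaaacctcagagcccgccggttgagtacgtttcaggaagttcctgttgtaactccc
Cox7a2l (chr17:83514334-83514583, minus strand): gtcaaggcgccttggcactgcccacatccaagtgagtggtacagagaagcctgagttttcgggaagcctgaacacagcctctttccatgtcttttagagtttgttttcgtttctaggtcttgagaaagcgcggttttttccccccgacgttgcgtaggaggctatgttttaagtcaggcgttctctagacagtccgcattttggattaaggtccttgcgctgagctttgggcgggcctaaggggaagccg
The Cycs promoter thus holds a CREB and an NRF1 motif, and an NRF1 motif stands in front of genes that went in either direction. A match is only a run of letters and does not show binding.

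Respiratory chain genes were not called between genotypes on either day. At day 8, 0 of 90 passed, in a comparison where 1.26% of all genes were called; 9 members had an unadjusted p under 0.05 and DESeq2 called 0. The median log2 fold change of null over wild type was 0.18 (65 genes above 0 and 25 below), against 0.01 over all genes. For 57 of the 90 the 95% interval lay within 2-fold of no change, and for the other 33 a 2-fold difference was not excluded at this depth. The medians were 0.20 in complex I, 0.16 for its assembly factors, 0.01 in complex II, 0.24 in complex III, 0.12 in complex IV and 0.16 in complex V. Among core subunits the intervals were narrow for Atp5a1 (−0.27 to 0.39), Sdha (−0.58 to 0.16) and Cox5a (−0.26 to 0.78) and wider for Ndufv1 (−0.49 to 0.92), Sdhb (−0.87 to 0.65), Uqcrc1 (−0.88 to 0.53), Cyc1 (−0.42 to 0.84) and Cycs (−0.86 to 0.49).

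Members with a low unadjusted p at day 8 included 4 described here on chromosomes 1 and 6. Of the 9 members under 0.05, 5 were among the 14 on chromosomes 1, 6, 8 and 14 and 4 among the 76 on others. Over all genes these shares were 22.9% and 11.3%. Ndufs1 (chromosome 1) was at 74.7 and 108 CPM in null against 49.8 and 59.7 CPM in wild type cultures (0.73, SE 0.22, adjusted p = 0.155). Ndufa4 and, named after their values were seen, Ndufa5 and Ndufb3 had log2 fold changes of 0.58, 0.85 and 0.61 with adjusted p of 0.226, 0.232 and 0.26. Of the 14 tested members on chromosomes 1, 6, 8 and 14 the median was 0.32, against 0.15 for the other 76; over all genes the medians were 0.30 and −0.03. These 4 chromosomes were singled out from earlier results of these data, for the higher median of their genes in null libraries, so the medians over all genes are a description. At day 14 the medians were 0.20 and −0.16 for members and 0.28 and −0.06 for all genes. The part of this difference between chromosomes in the members' values was not tested.

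At day 14, 0 of 90 passed, against 0.613% of all genes, and 6 had an unadjusted p under 0.05 (DESeq2 called 0). The median was −0.15, with 32 genes above 0 and 58 below, against −0.02 over all genes, and 66 intervals lay within 2-fold of no change. It moved to −0.004 without wild type day 14 replicate 2 and to −0.07 without null day 14 replicate 1. In complex II 2 estimates were above 0 and 2 below. The highest was that of Sdhb on chromosome 4, at 18.6 and 22.7 CPM in null against 14.6 and 17.1 CPM in wild type cultures (0.38). Sdhd, a membrane anchor, was at 36.3 and 44.2 against 63.3 and 58.5 CPM (−0.59, SE 0.22, adjusted p = 0.264) and the flavoprotein Sdha at 140 and 117 against 162 and 172 CPM (−0.37, SE 0.17, adjusted p = 0.377), while Sdhc, another anchor on chromosome 1 named after its values were seen, was at 143 and 147 against 121 and 130 CPM (0.20, adjusted p = 0.771). Ndufb10 (chosen after its values were seen) was at 34.6 and 33.9 against 21.3 and 20.9 CPM (0.70, SE 0.29, adjusted p = 0.334). None of these genes passed. The intervals of Atp5a1 (−0.56 to 0.10), Cox5a (−0.72 to 0.31), Cox4i1 (−0.54 to 0.50), Cox6a1 (−0.34 to 0.40), Cox7b (−0.46 to 0.45) and Cox7a2l (−0.55 to 0.24) lay within 2-fold of no change. The interval of Cycs (estimate 0.41) reached past 2-fold, and in complex II 2 of 4 intervals lay within it.

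**Figure D4:**
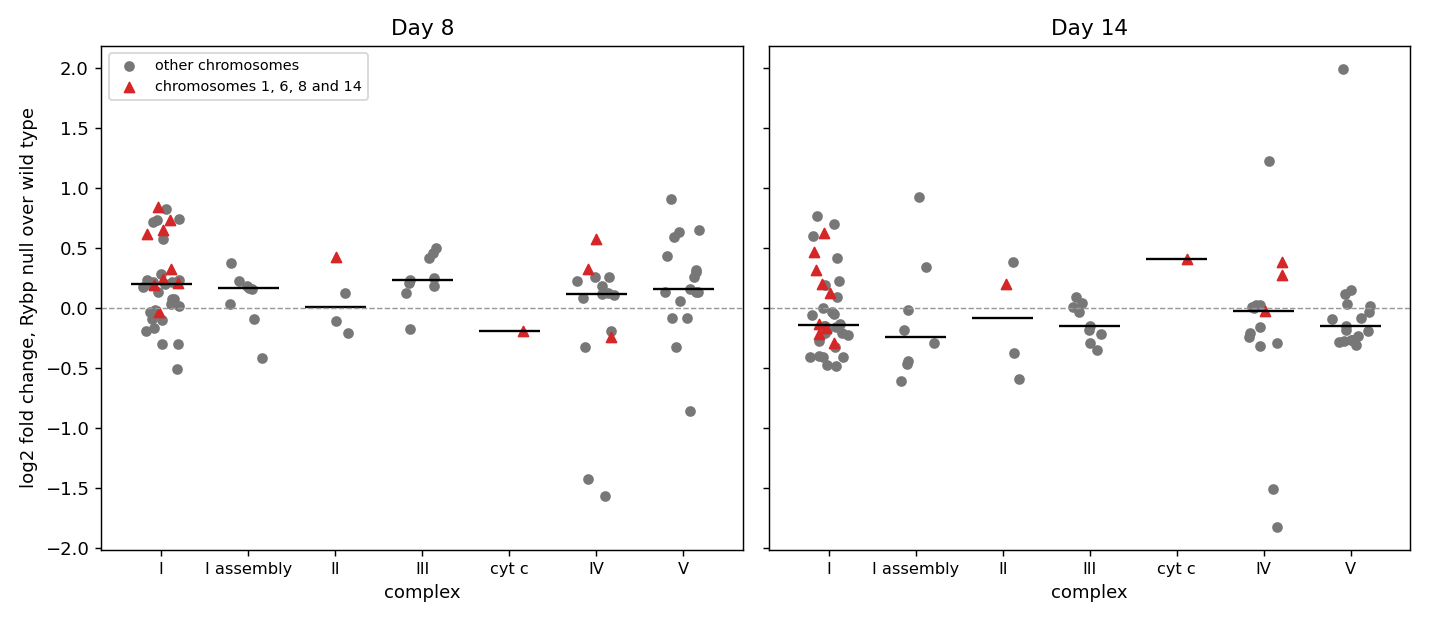
Log2 fold change of Rybp null over wild type for the 90 tested genes by complex at day 8 and day 14; red triangles are genes of chromosomes 1, 6, 8 and 14, grey points the others, and lines group medians. No point passed the test; the median over all 90 is 0.18 at day 8 and −0.15 at day 14, and the triangles have a median of 0.32 and 0.20.

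The member median at day 8 rested on 1 library. Without null day 8 replicate 1 it was −0.01 (44 genes above 0), and without replicate 2 it was 0.30. In this group 15 of 90 members were at least 2-fold apart between replicates, against 5 in wild type day 8, 3 in wild type day 14 and 4 in null day 14. That share is near the background of the same libraries, where 1865 of 12862 protein-coding genes were 2-fold apart, against 1218 to 1622 in the other groups. Replicate 1 was higher by a median of 0.26 on the log2 scale over all members and by 0.36 over the 65 with transcripts under 1000 bases. Over all protein-coding genes the median was 0.01, and over the 2216 with transcripts under 1000 bases it was 0.09. The ratio fell with transcript length (Spearman's rho −0.38 across the 90 genes, a description over genes of 1 pair of libraries), against −0.08 over protein-coding genes. Lengths are medians over a gene's annotated protein-coding transcripts, such as 651 bases for Ndufs1, and need not be those of the transcripts expressed. Examples named after their values were seen are Ndufs3 at 96.7 and 42 CPM, Atp5l at 82 and 30.5 CPM and Ndufa5 at 188 and 90.9 CPM in replicates 1 and 2. Leaving out either library leaves a lone null library, which the fit takes to vary like the other groups. In that fit without replicate 2, Ndufs3, Atp5g3, Ndufa5 and Atp5o were called higher and Cox6b2 lower in null cultures, where 2.05% of all genes were called. Without replicate 1, Ndufs1 was called higher, where 1.53% of all genes were called. Cell type markers also differed between replicates 1 and 2, in both directions. Summed red cell markers were at 3340 and 1100 CPM, smooth muscle and fibroblast markers at 9370 and 5010 CPM and cardiomyocyte markers at 139 and 80.9 CPM. Visceral endoderm and liver markers were at 55.6 and 244 CPM, ES cell markers at 65.3 and 132 CPM and male germ cell markers at 120 and 200 CPM. Their part in the difference was not tested.

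**Figure D5:**
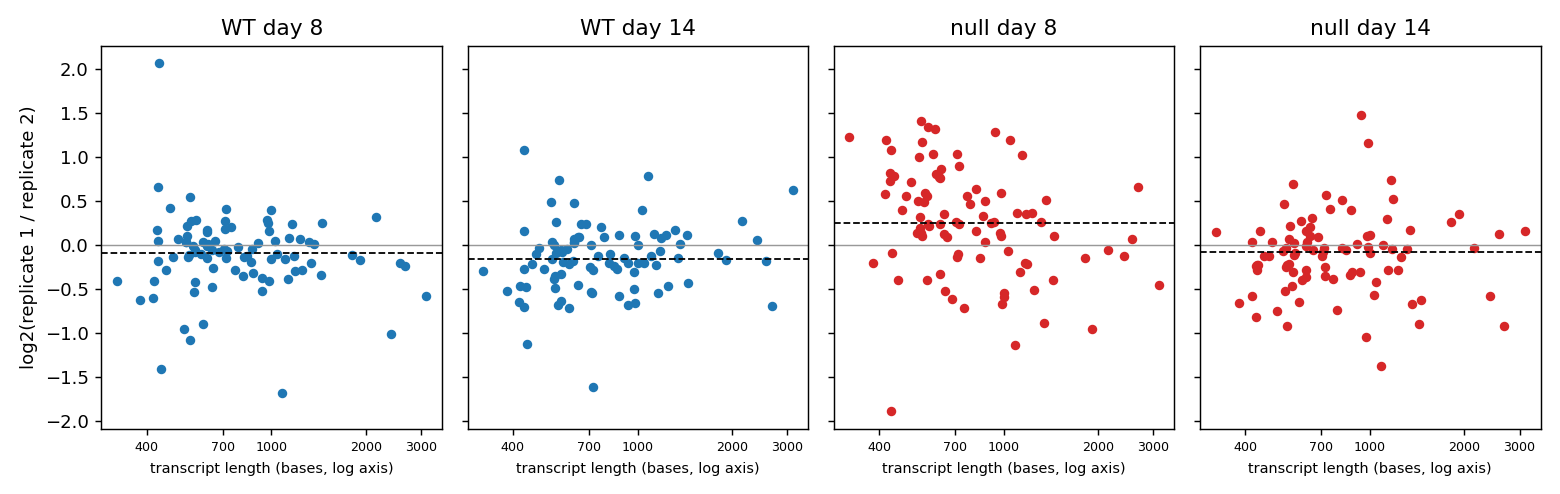
Log2 ratio of replicate 1 to replicate 2 for the 90 genes against the median length of their protein-coding transcripts (bases, log axis), 1 panel for each group with 2 libraries; the dashed line is the median. In null day 8 the median is 0.26 and the shorter genes lie higher, while the medians of the other groups are between −0.15 and −0.07.

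In ES cells the genotypes had 1 library each and were not tested. With a prior count of 2 added, no member of the 84 with 5 CPM or more in either library was 2-fold higher in null cells (0, against 7.72% of 10865 genes), and 2 were 2-fold lower (against 4.44%; 12.2% in either direction). The complex I assembly factor Ndufaf6 was at 9.9 CPM (30 counts) in wild type and 1.86 CPM (11 counts) in null cells, a ratio of 5.32 (95% counting interval 2.59 to 11.8), and the ATP synthase subunit Atp5e at 34.6 and 16.2 CPM, a ratio of 2.13 (1.60 to 2.84). Both were named after their values were seen. The median log2 ratio of the 84 was 0.12, against 0.06 over all genes, with 0.45 for the 14 on chromosomes 1, 6, 8 and 14 and 0.06 for the other 70. Over all genes the medians of the same split were 0.397 and −0.008.

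Of the heart and skeletal muscle isoforms of complex IV, Cox6a2 and Cox8b were close to absent, also in the wild type cultures with cardiomyocyte transcripts. Cox7a1 was low, with its highest level in the ES cells of each genotype. Cox6a2 held 1 and 0 counts in the wild type libraries of day 8, 1 and 3 at day 14 and 0 in every null and ES cell library; Cox8b held 1 count in all 10 libraries together. Their ubiquitous partners Cox6a1 and Cox8a stood at 348 and 57.6 CPM per kilobase in wild type day 8 cultures, against 0.235 for Cox6a2 and 0.391 for Cox8b on the same scale. Cox7a1 was highest in ES cells, at 11 counts in wild type (3.63 CPM) and 42 in null cells (7.11 CPM). Per kilobase this was 8.27 and 16.2 CPM, against 38.5 and 31.6 CPM for its partner Cox7a2. It held 5 and 0 counts in wild type and 1 and 1 in null libraries at day 8. Its fall in null cells passed (27 times as much at day 0 as at day 8, 95% counting interval 7.04 to 231, adjusted p = 0.00738). In wild type the change of Cox7a1 to day 8 did not pass. At day 14 it held 5 and 9 counts in wild type (1.52 and 2.3 CPM) and 2 and 3 in null libraries. Cox4i2 was at 7 and 7 counts in wild type and 0 and 1 in null libraries at day 14, a ratio of 14.8 (2.25 to 624) that covers counting error only and was not tested across replicates, and at 4 and 0 counts in the null libraries of day 8.

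Of the testis forms, Cox7b2 and Cox8c held at most 2 counts in any library. Cox6b2 was expressed, and it had the lowest p of all members at day 14 and the largest difference on the lower side at both days. It was at 2.97 and 2.88 CPM in wild type and null ES cells, at 7.03 and 6.76 CPM in wild type against 0.725 and 4.03 CPM in null cultures at day 8, and at 10.9 and 13.3 against 3.1 and 3.71 CPM at day 14. The wild type libraries were above the null ones on both days, with log2 fold changes of −1.57 (SE 0.62, adjusted p = 0.29) and −1.82 (SE 0.58, adjusted p = 0.185), neither of which passed. The pooled ratio of wild type to null was 1.03 (0.405 to 2.45) at day 0, 3.08 (1.73 to 5.74) at day 8 and 3.57 (2.28 to 5.76) at day 14, where the intervals cover counting error only. The summed level of 10 male germ cell markers was 4.51 to 5.62 CPM in wild type and 75.9 to 200 CPM in null cultures of days 8 and 14. Of these markers 9 were above 0 (null over wild type) and 1 below at day 8, and 7 and 3 at day 14. Dazl was below 0 on both days (−1.09 and −1.51) and Dppa3 at day 14 (−3.24), and neither passed. The part of such cells in the values of Cox6b2 was not tested. Cox6b1, the ubiquitous partner of Cox6b2, was at 209 and 229 CPM in wild type and 283 and 192 CPM in null cultures at day 8 (0.12, interval −0.29 to 0.53). Ndufa4l2, a relative of Ndufa4 that responds to hypoxia, held 0 to 5 counts in each library except null day 14 replicate 1, which had 13.

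From day 8 to day 14 no member was called in either genotype, where 4.04% of all genes were called in wild type and 7.69% in null cultures; 3 members had an unadjusted p under 0.05 in each, and DESeq2 called 0. In wild type 72 of the 90 were above 0 and the median was 0.18, against 0.00 over all genes. It was 0.31 in complex III, 0.30 in complex V, 0.27 in complex IV, 0.162 in complex I and 0.155 in complex II. For the assembly factors the median was 0.07, and cytochrome c was at −0.13. In null cultures 40 were above 0 and the median was −0.03. The difference between the genotypes in this change had a median of −0.28 with 71 genes below 0, but 0 of 90 passed and so did 0.0% of all genes (962 genes and 3 members had an unadjusted p under 0.05; DESeq2 called 8 genes and 0 members). Without null day 8 replicate 1 its median was −0.11 and that of the null change 0.11, so the direction of the latter turned on that library.

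Among regulators of mitochondrial gene expression, Ppargc1a and, at few counts, Esrrb passed between genotypes at day 8. Ppargc1a, which encodes the coactivator PGC-1alpha, was at 9.26 and 10.7 CPM in wild type against 1.45 and 1.15 CPM in null cultures at day 8, a difference on the log2 scale of −2.90 (SE 0.53, adjusted p = 0.0202). At day 14 it was at 15.2 and 9.7 against 8.73 and 13.6 CPM (−0.15, adjusted p = 0.95), and the rise of null cultures between those days passed (3.06, SE 0.52, adjusted p = 0.00395). The genotype difference in that rise did not pass (2.75, SE 0.68, adjusted p = 0.641). The day 8 difference kept its size without any 1 of the 4 libraries of day 8 but then no longer passed. In ES cells Ppargc1a held 1 and 2 counts; the ratio of day 8 to day 0 was 30.4 (5.27 to 1220) in wild type and 3.88 (0.827 to 36.4) in null cells. Tfam, a transcription factor that also packages mitochondrial DNA, fell from 88.4 to 22.7 and 42 CPM in wild type and from 97.6 to 30 and 29.9 CPM in null cells by day 8 (−1.45 and −1.70, adjusted p = 0.00402 and 0.00134). Nrf1 (−0.33, adjusted p = 0.353, and −0.19, adjusted p = 0.61) and Esrra (1.02, adjusted p = 0.151, and 0.64, adjusted p = 0.311) did not pass from day 0 to day 8. Of 19 tested regulators 8 were lower and 2 higher at day 8 in wild type (52.6%, against 40.5% of all genes called). In null cells 7 were lower and 1 higher (42.1%, against 37.7%). Between genotypes at day 8 Ppargc1a was lower and the ES cell gene Esrrb higher in null cultures (10.5%, against 1.26%). Esrrb was at 594 and 707 CPM in wild type and null ES cells. At day 8 it held 3 and 0 counts in wild type and 24 and 13 in null libraries (3.33, SE 0.725, adjusted p = 0.0473).

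In neighbouring pathways the calls from day 0 to day 8 were mostly lower, apart from fatty acid oxidation. Over all genes tested 19.3% were lower and 21.2% higher in wild type, and 18.6% and 19.0% in null cells. Among 18 genes of the citric acid cycle and pyruvate dehydrogenase, 7 were lower and 1 higher in wild type and 9 and 1 in null cells, with medians of −0.66 and −0.84. Lower in both were Idh3a (−1.96 and −1.48), Pdha1 (−1.87 and −1.45) and Dlat (−1.23 and −1.51), each with an adjusted p of at most 0.00511, and Idh2 was higher (1.76 and 2.27). Of 14 genes for abundant mitochondrial carriers, porins and chaperones 9 were lower in each genotype and 1, the carrier Slc25a4, was higher in wild type (0.67, adjusted p = 0.0125). Lower in both were, among others, the chaperonins Hspe1 (−2.08 and −1.34) and Hspd1 (−1.98 and −1.50) and the import channel Timm23 (−2.06 and −1.79). Between genotypes at day 8 Hspd1 was at 522 and 738 in null against 336 and 371 CPM in wild type cultures (0.83, SE 0.18, adjusted p = 0.0432) and Hspe1 at 285 and 309 against 138 and 167 CPM (0.96, SE 0.16, adjusted p = 0.0145); both lie on chromosome 1. Both calls were lost without either wild type day 8 library, and that of Hspd1 under 6 of 13 alternatives in all. Of 42 further assembly factors 3 were lower and 1 higher in wild type (9.52%, against 40.5% of all genes called). In null cells 6 were lower (14.3%, against 37.7%), so this list was called less often than all genes. Fatty acid oxidation genes were mixed: of 19 tested, 5 were higher and 3 lower in wild type and 2 higher and 1 lower in null cells. Acadvl, the first dehydrogenase for very long chains, rose in both (1.81 and 1.25, adjusted p = 0.00241 and 0.0158), and Cpt1a, which admits fatty acids to the mitochondrion, fell by day 8 in both (−1.74 and −2.16) and rose by day 14 (3.68 and 2.71, adjusted p = 0.000964 and 0.00164). Of the citric acid cycle, fatty acid oxidation and assembly factor lists 0 genes passed between genotypes on either day. Over all genes 1.26% were called at day 8 and 0.613% at day 14. In these lists 4, 3 and 4 genes at day 8 and 2, 1 and 3 at day 14 had an unadjusted p under 0.05.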

How the data were processed

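The authors deposited whole-number read counts per Ensembl gene for 10 libraries, not normalized. The submitters' processing notes name TopHat, HTSeq, DESeq and mm9; their versions, the annotation and the strand setting are not stated in the sources used here. Per the labels' protocols, TRIzol and NuGEN kits were used. Of 36191 IDs 30946 matched a symbol. Exon overlaps, chromosomes and transcript lengths came from GENCODE vM21 (GRCm38); 29 members overlap an exon of a gene on the opposite strand, 5 one on the same strand and 6 have named pseudogenes.

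Counts were tested with edgeR 4.0.16 in R 4.3.3: filterByExpr with a minimum count of 10, TMM, and a robust quasi-likelihood fit of 6 genotype-by-day groups over all libraries (4 residual degrees of freedom), two-sided, Benjamini-Hochberg adjusted over 15819 genes within each comparison. Each adjusted p is from this test, SE is the estimate's size divided by the root of F, and 95% intervals use the test's degrees of freedom. Ratios of genes with few counts have exact binomial counting intervals; these cover counting error only. On simulated data 30% of 2-fold and 88% of 4-fold changes were recovered at day 8 between genotypes, and 13% and 74% between wild type day 8 and day 0. The simulation changed only a few of the better counted genes and gave every gene the same spread. In the data 40.5% of all genes were called between wild type day 8 and day 0. These shares therefore do not measure the power of the comparisons reported. DESeq2 1.42.0, RLE scaling, no filter, a replicate block, days 8 and 14 alone, the table without chromosomes 1, 6, 8, 14 and Y, and each library left out were the alternatives. The members and lists were chosen with earlier results of these data known. Members named with values are those called (at most the 8 largest changes a direction), the isoforms of complex IV with their partners, and core subunits of each complex; others are said to be chosen later. From the other lists up to 3 called genes a direction, Ppargc1a, Esrra, Tfam and Nrf1 are named. An item among the members is not reported here.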

Additional observations from a re-analysis of the deposited data

How the results depend on the processing

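From day 0 to day 8 the count of called members stayed within 1.5 times its value under every alternative in null cells, and in wild type under every alternative except leaving out a wild type day 8 library, where the counts were 13 and 14 (13 to 27 over all libraries left out) against 22. Between genotypes and from day 8 to day 14 the count of 0 moved only as follows. Without the filter on low counts 2 members were called at day 8 (Ndufs1 and Ndufa5), 1 at day 14 (Cox6b2) and 1 in the null change from day 8 to day 14 (Ndufa5). With a library left out the count ranged from 0 to 5 at day 8 and from 0 to 3 for the null change from day 8 to day 14, where null day 8 replicate 1 left out gave 1 (Ndufa9) and replicate 2 gave 3 (Cox4i1 higher, Ndufa5 and Uqcrb lower). Of 53 gene results called, 37 were called under each alternative that gave an adjusted p, 16 were lost under at least 1, and none changed sign; of 20 not called, 8 passed under at least 1. The member median changed sign in 4 cases: −0.011 at day 8 between genotypes and 0.113 for the null change from day 8 to day 14 without null day 8 replicate 1, and −0.004 and −0.104 for the genotype difference in the change from day 0 to day 8 when replicate 1 of wild type or of null day 8 was left out, in that order. Over the libraries left out these 3 medians ranged from −0.011 to 0.298, from −0.149 to 0.113 and from −0.104 to 0.108. At day 14 between genotypes the range was −0.2 to −0.004, and for the genotype difference in the change from day 8 to day 14 it was −0.355 to −0.108. RLE scaling moved the median of all genes by at most 0.065 (−0.065 in wild type from day 0 to day 8). Same-numbered libraries of different groups had correlated deviations of −0.211 to 0.16 over all genes, so the numbers were not taken to pair samples; with the replicate block 20 members were called from day 0 to day 8 in wild type, 13 in null cells and 0 in each of the other comparisons. The day 0 ratios past 2-fold stayed at 2 with a prior count of 0.5. At this depth 33 members at day 8 and 24 at day 14 had intervals that reached past 2-fold.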

Other observations

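Pseudogene rows left out of the set had counts of their own, and reads may be shared between them and their parent genes. Cox6c2 held 132 to 320 counts in each library, 37.8 to 64 CPM. Atp5l2-ps held 35 and 67 counts in wild type and null ES cells, 11.5 and 11.3 CPM, and 0 to 2 counts in every later library, and Atp5l-ps2 held 19 and 45 counts in ES cells and 0 to 6 later. Their parent-like gene Atp5l was at 71.6 and 69.4 CPM in ES cells and between 30.5 and 82 CPM later. These rows entered no comparison of the members.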
